A study of Mus musculus with 6 samples.

Results

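The genes described here are 9 feedback inhibitors of growth factor signalling, the MAP kinase phosphatases Dusp1, Dusp4, Dusp5 and Dusp6, the Sprouty genes Spry1, Spry2 and Spry4 and the Sprouty-related genes Spred1 and Spred2. They were taken by symbol from the platform annotation of a mouse Affymetrix expression array, with every probe set that carries 1 of these symbols alone. This gave 24 of the array's 45101 probe sets and 9 of 18193 named genes. The rule used the symbols alone, and this set of symbols was drawn up with earlier results of these data known. RNA came from NIH3T3 cells, an immortalised mouse fibroblast line, of a single clone (clone M) with multiple insertions of lacO, an operator sequence from bacteria to which the lac repressor binds. The 3 tethered samples had the insertion at the nuclear periphery, and the 3 untethered samples had it in the central part of the nucleus. Both groups were grown in DMEM with fetal calf serum to a similar density. The labels name neither the agent that tethers nor the chromosomes that carry the insertions, and the study is of 1 clone.

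Extracellular signal-regulated kinase (ERK) lies at the end of a relay that runs from growth factor receptors through Ras, Raf and MEK. Active ERK raises transcription of its own inhibitors, so the messages of these genes are commonly used as a readout of the relay. The dual-specificity phosphatases remove the phosphates that activate ERK and related kinases, some in the nucleus (Dusp1, Dusp4, Dusp5) and some in the cytoplasm (Dusp6). Sprouty and Spred proteins act further up, between the receptors and Raf, and Spred proteins bring the Ras inactivator neurofibromin to the membrane. Fibroblasts in serum are exposed to such growth factors throughout culture.

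The sequences upstream of the start site are shown for the phosphatase genes Dusp1, Dusp5 and Dusp6, whose signals varied between arrays. Each covers 250 bases before the start from RefSeq, build GRCm38.p6, written in the direction of transcription. Capitals mark matches on either strand to the motifs searched. These were the CArG box of serum response factor (CC, then only A or T, then GG), the full cyclic AMP response element TGACGTCA and its shorter form TGACG, which lies within it, the AP-1 motif TGANTCA, the E-box CACGTG and the ETS motif CCGGAA.
Dusp1, chr17:26508473-26508722, minus strand: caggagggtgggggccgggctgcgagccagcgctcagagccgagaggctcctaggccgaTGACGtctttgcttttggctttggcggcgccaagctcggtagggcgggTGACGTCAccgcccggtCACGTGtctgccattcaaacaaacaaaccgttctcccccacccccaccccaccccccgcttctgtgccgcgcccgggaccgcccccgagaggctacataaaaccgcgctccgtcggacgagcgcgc
Dusp5, chr19:53528895-53529144, plus strand: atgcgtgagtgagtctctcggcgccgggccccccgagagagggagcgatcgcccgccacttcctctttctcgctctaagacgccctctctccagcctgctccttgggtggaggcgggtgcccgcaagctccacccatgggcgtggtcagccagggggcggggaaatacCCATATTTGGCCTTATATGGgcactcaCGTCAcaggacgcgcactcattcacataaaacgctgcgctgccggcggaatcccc
Dusp6, chr10:99262981-99263230, plus strand: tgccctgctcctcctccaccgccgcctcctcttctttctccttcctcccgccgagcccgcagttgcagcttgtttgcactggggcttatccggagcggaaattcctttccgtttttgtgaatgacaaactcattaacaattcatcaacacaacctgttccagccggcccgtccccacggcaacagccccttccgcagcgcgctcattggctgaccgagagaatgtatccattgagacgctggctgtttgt

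Dusp1 held 1 full response element, 143 to 136 bases before the start, a further TGACG and 1 E-box. Full elements were found in 1.55% of 32851 promoters of the same length, TGACG in 17.8% and the E-box in 6.02%. Dusp5 held 2 adjoining CArG boxes, which end 73 and 63 bases before the start, and 1 TGACG. CArG boxes were found in 1.47% of promoters. Dusp6 held none of the motifs, of which TGANTCA was found in 6.75% and CCGGAA in 12.0% of promoters. Of the promoters of Spry1, Spry2, Spred1 and Spred2, that of Spred2 held 1 TGACG and the others held no match. Promoters of Dusp4 and Spry4 are not reported here. These are matches of letters in a short window and not measured binding sites.

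Values are log2 of the deposited intensity, with intensities under 16 set to 16. The array medians lay between 482.5 and 490.8 intensity units, and log2 values correlated at 0.978 to 0.994 within groups and 0.98 to 0.995 between them. The arrays numbered 1 in both groups stood apart from the other 4. Principal component 1, with 62.1% of the variance, placed them at -0.253 and -0.202, against 0.037 to 0.177 for the rest, so differences that rest on them are also given without them. All 11 fibroblast marker genes on the array, Col1a1, Vim and Thy1 among them, lay above the median signal, with a list mean between 12.17 and 12.75 in tethered and 12.57 and 12.84 in untethered arrays. Means of the macrophage, endothelial, epithelial and adipocyte marker lists lay between 8.42 and 9.2 in all arrays, and 11 of those 24 genes lay above the median signal. No detection calls were used, so a signal near the median may be background, and in RNA from a whole culture fewer expressing cells and less RNA per cell cannot be told apart. The labels do not say that samples came from separate cultures, so p-values measure the spread between these samples, which may be technical.

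The first question was whether the feedback genes differed between tethered and untethered cells. None of them changed by the test used, in which limma compared the groups over 22518 probe sets brighter than the median (called at a Benjamini-Hochberg adjusted p under 0.05). It called 0.0% of all probe sets, and 0 of the 18 probe sets of the 9 genes that were bright enough to be tested. At an unadjusted p under 0.05 there were 2 of these 18, both of Spred2, beside 2.38% of all probe sets tested. Every gene had at least 1 tested probe set, and the adjusted p was 0.9994 for each. Taking the brightest probe set of each gene, 7 of 9 log2 fold changes (tethered minus untethered) lay below 0, where 58.8% of 11846 genes did. They ran from -0.48 to 0.03 with a median of -0.207, beside a median of -0.022 over all genes tested. That median was -0.02 without tethered replicate 1, -0.336 without tethered replicate 3, -0.123 without untethered replicate 3, -0.133 without untethered replicate 2 and -0.009 with both arrays numbered 1 left out, a setting chosen after seeing the data.

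Dusp1, a nuclear phosphatase for several MAP kinases and itself an immediate early gene, was the 1 gene of the 9 whose groups did not overlap on its brightest probe set. Its log2 intensity was 11.72, 10.98 and 11.47 in tethered replicates 1, 2 and 3, against 11.74, 12.0 and 11.79 in the untethered ones. The highest tethered value lay just under the lowest untethered one, and tethered replicate 2 was the low array. The log2 fold change was -0.45 (SE 0.197), with means of 11.39 ± 0.38 in tethered and 11.84 ± 0.14 in untethered cells (SD, n = 3 each; limma, adjusted p = 0.9994). Groups of 3 that did not overlap were found for 8.4% of all genes, so 1 in 9 is near the background. With 1 array left out the fold change ran from -0.62 without tethered replicate 1 to -0.25 without tethered replicate 2, and it was -0.67 when both arrays numbered 1 were left out. After quantile normalization the groups overlapped, at -0.40. The transferrin receptor control, as 5' minus 3' log2 signal, which falls with incomplete or degraded RNA, was -2.09, -1.67 and -1.55 in the tethered and -2.81, -3.07 and -1.52 in the untethered arrays, in the order of replicate numbers. The Dusp1 signal was highest in untethered replicate 2, which had the lowest control value. It was next highest in untethered replicate 3 (11.79), which had the highest control value (-1.52). The part of RNA quality in the Dusp1 difference was not tested.

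**Figure D1:**
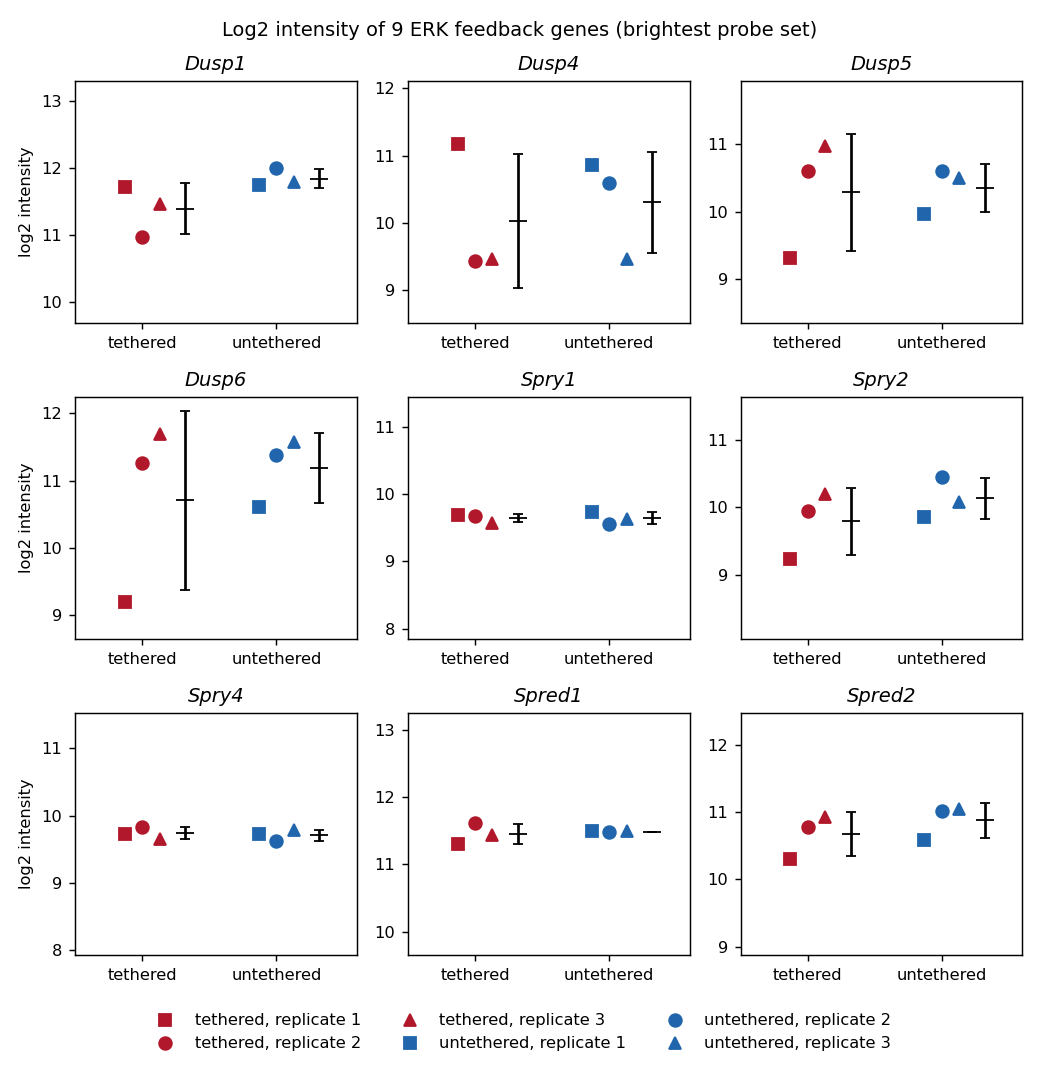
Log2 intensity of the brightest probe set of each of the 9 genes, with tethered arrays (red) left of untethered arrays (blue), symbols giving the replicate number and black bars the mean ± SD of 3 arrays. Every panel spans the same number of log2 units. Dusp1 is the gene whose groups do not overlap on this probe set (11.72 against 11.74 at the nearest), and for Dusp5, Dusp6, Spry2 and Spred2 the squares, both arrays numbered 1, lie lowest.

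Dusp6, the cytoplasmic phosphatase that acts on ERK, had the lowest fold change and the widest spread of the 9 genes. Its log2 intensity was 9.2, 11.26 and 11.69 in tethered replicates 1, 2 and 3, against 10.61, 11.38 and 11.58 in the untethered ones. Both arrays numbered 1 were low, tethered replicate 1 most of all, and the remaining values of the groups lay among each other. The log2 fold change of -0.48 (SE 0.674) was therefore smaller than the spread between arrays of a group. It turned to 0.28 without tethered replicate 1, was -0.96 without tethered replicate 3, -0.75 without tethered replicate 2, -0.77 without untethered replicate 1 and -0.28 without untethered replicate 3, and was -0.01 without both arrays numbered 1.

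Dusp5, a nuclear phosphatase for ERK, had values of 9.31, 10.6 and 10.97 in tethered cells, against 9.96, 10.6 and 10.5 in untethered cells, in the order of replicate numbers. The arrays numbered 1 were again the lowest of their groups, and the groups overlapped. The log2 fold change was -0.06 (SE 0.443), with 0.43 without tethered replicate 1, 0.06 without untethered replicate 2, 0.02 without untethered replicate 3, -0.40 without tethered replicate 3, -0.26 without untethered replicate 1, -0.21 without tethered replicate 2 and 0.23 without both arrays numbered 1.

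Dusp4, a nuclear phosphatase induced by growth factors, showed the opposite order. Its values were 11.18, 9.44 and 9.47 in tethered cells, against 10.86, 10.6 and 9.46 in untethered cells. The arrays fell into 3 high ones (tethered replicate 1 and untethered replicates 1 and 2) and 3 low ones that lay within 0.03 log2 units of each other, with both kinds in each group. The log2 fold change was -0.28 (SE 0.588). Without 1 tethered array it was -0.86 (replicate 1), 0.02 (replicate 2) and -0.0002 (replicate 3), and without 1 untethered array -0.0017 (replicate 1), -0.13 (replicate 2) and -0.70 (replicate 3). It was -0.58 without both arrays numbered 1. The 3 high arrays were the 3 lowest for the transferrin receptor control (-2.09, -2.81 and -3.07) and for the beta-actin control (-0.29, -0.31 and -0.56, against -0.15 to -0.10 in the low arrays). The other controls did not divide the arrays in this way. GAPDH was 0.10 in tethered replicate 1, the highest array, and the 18S control was 0.04 there, against 1.05 and 1.25 in untethered replicates 1 and 2. The part of RNA quality in this split was not tested.

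Of the Sprouty genes, which block the relay upstream of Raf, Spry2 moved most between arrays. Its brighter probe set had values of 9.23, 9.95 and 10.19 in tethered cells, against 9.86, 10.45 and 10.08 in untethered cells. The groups overlapped, each with its array numbered 1 lowest, and the log2 fold change was -0.34 (SE 0.279). It was -0.06 without tethered replicate 1, -0.54 without tethered replicate 3, -0.18 without untethered replicate 2 and -0.20 without both arrays numbered 1. The dimmer Spry2 probe set fell below the filter and stayed between 8.31 and 8.43 on all arrays.

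Spry1 was flat. Its values were 9.69, 9.67 and 9.57 in tethered cells, against 9.74, 9.55 and 9.63 in untethered cells, and both means were 9.64 (SE of the difference 0.077). Spry4 had 4 probe sets, of which 2 were tested. On the brightest, values were 9.73, 9.83 and 9.66 in tethered and 9.72, 9.63 and 9.79 in untethered cells, or a log2 fold change of 0.03 (SE 0.079). The other tested one stood at 0.08 (SE 0.068). Neither group of values for Spry1 or Spry4 stood clear of the other on these probe sets. A dim Spry4 probe set, below the filter, had 6.83, 7.74 and 7.88 in tethered and 7.01, 8.01 and 7.92 in untethered cells, so both arrays numbered 1 were low by about the same amount.

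The Spred genes had the most probe sets, and these did not all move together. Spred1, whose loss in humans causes a disorder of Ras signalling, had 8 probe sets. The brightest had 11.3, 11.61 and 11.43 in tethered cells, against 11.49, 11.48 and 11.49 in untethered cells, which gave -0.03 (SE 0.091). The tethered values lay on both sides of the untethered ones. Over its 6 tested probe sets the log2 fold change ran from -0.29 (SE 0.362) to 0.16 (SE 0.298), both on probe sets shared by several transcripts (suffix s_at), where the arrays numbered 1 were the lowest.

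Spred2 had 5 probe sets, 4 of them tested. The brightest had 10.3, 10.78 and 10.93 in tethered cells, against 10.58, 11.01 and 11.05 in untethered cells, or a log2 fold change of -0.21 (SE 0.204). The groups overlapped, with the arrays numbered 1 lowest. At each replicate number the tethered value was lower than the untethered one. The fold change was -0.02 without tethered replicate 1, -0.34 without tethered replicate 3, -0.36 without untethered replicate 1, -0.12 without untethered replicate 3 and -0.17 without both arrays numbered 1. By the mean of the 5 probe sets it was -0.05. Another pair of Spred2 probe sets separated the groups in opposite directions. One had 9.13, 9.11 and 9.16 in tethered and 9.37, 9.4 and 9.27 in untethered cells, or a log2 fold change of -0.21 (SE 0.066, limma, adjusted p = 0.9994). The other had 9.72, 9.79 and 9.69 in tethered and 9.67, 9.45 and 9.47 in untethered cells, or a log2 fold change of 0.20 (SE 0.082, limma, adjusted p = 0.9994). Neither was the brightest for the gene. Of all probe sets tested 8.16% separated the groups, 3.85% with tethered cells lower and 4.3% with tethered cells higher, beside 3 of these 18 probe sets (Dusp1 and this Spred2 pair). The annotation does not say which Spred2 transcripts they measure, so no direction is given for the gene.

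**Figure D2:**
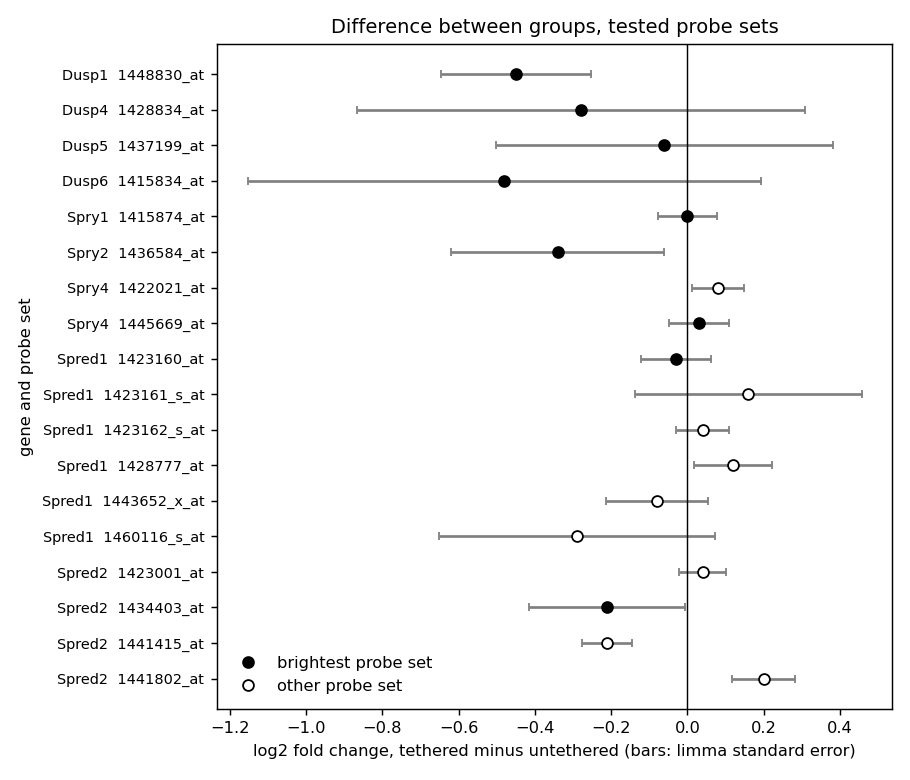
Log2 fold change, tethered minus untethered, of the 18 tested probe sets of the 9 genes, with limma's standard error as bars and the brightest probe set of each gene filled. The bars are widest for Dusp6 (0.674) and Dusp4 (0.588) and narrow for Spry1 and Spry4. Bars of the last pair, both Spred2, lie on opposite sides of 0.

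The second pattern was the spread between arrays, which for several of these genes exceeded that of most genes. The log2 range over the 6 arrays was 1 or more for 5 of the 9 genes (Dusp1, Dusp4, Dusp5, Dusp6 and Spry2), where 5.47% of all genes reached it. It was also reached by 13 of 29 ERK-regulated factors and targets, 5 of 15 other regulators of receptor and Ras signalling and 4 of 17 receptors and adaptors. Of the other phosphatases and Spred3, 0 of 11 reached it, beside 1 of 15 genes in the kinase list and 2 of 13 in the stress kinase list (lists below). Those 2 were Gadd45a (3.77) and Atf3 (3.52), neither of them a kinase. Within the 9 genes the range was 2.49 for Dusp6, 1.75 for Dusp4, 1.66 for Dusp5, 1.22 for Spry2 and 1.02 for Dusp1. The others of the 9 ran from 0.19 for Spry1 to 0.75 for Spred2. Over the 4 arrays numbered 2 and 3 it was 1 or more for 2 of the 9, Dusp1 (1.02) and Dusp4 (1.17), where 0.751% of all genes reached it. There Dusp5 spanned 0.46 and Dusp6 0.43. These counts describe the arrays, with no test, because the genes were chosen with earlier results of these data known.

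The arrays numbered 1 carried most of the spread of Dusp5 and Dusp6. The mean of both arrays numbered 1 minus the mean of the other 4 was -1.58 for Dusp6, -1.03 for Dusp5, -0.62 for Spry2 and -0.50 for Spred2. It was 1.28 for Dusp4. A difference of -1 or below was found for 1.65% of all genes, and one of 1 or above for 0.49%. Both arrays numbered 1 lay below the other 4 for 4 of the 9 genes and above them for 2, Dusp4 and Spry1, where 25.0% and 12.0% of all genes did so. Tethered replicate 1 was lower than untethered replicate 1 for Dusp6 (9.2 against 10.61), Dusp5 (9.31 against 9.96), Spry2 (9.23 against 9.86) and Spred2 (10.3 against 10.58).

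**Figure D3:**
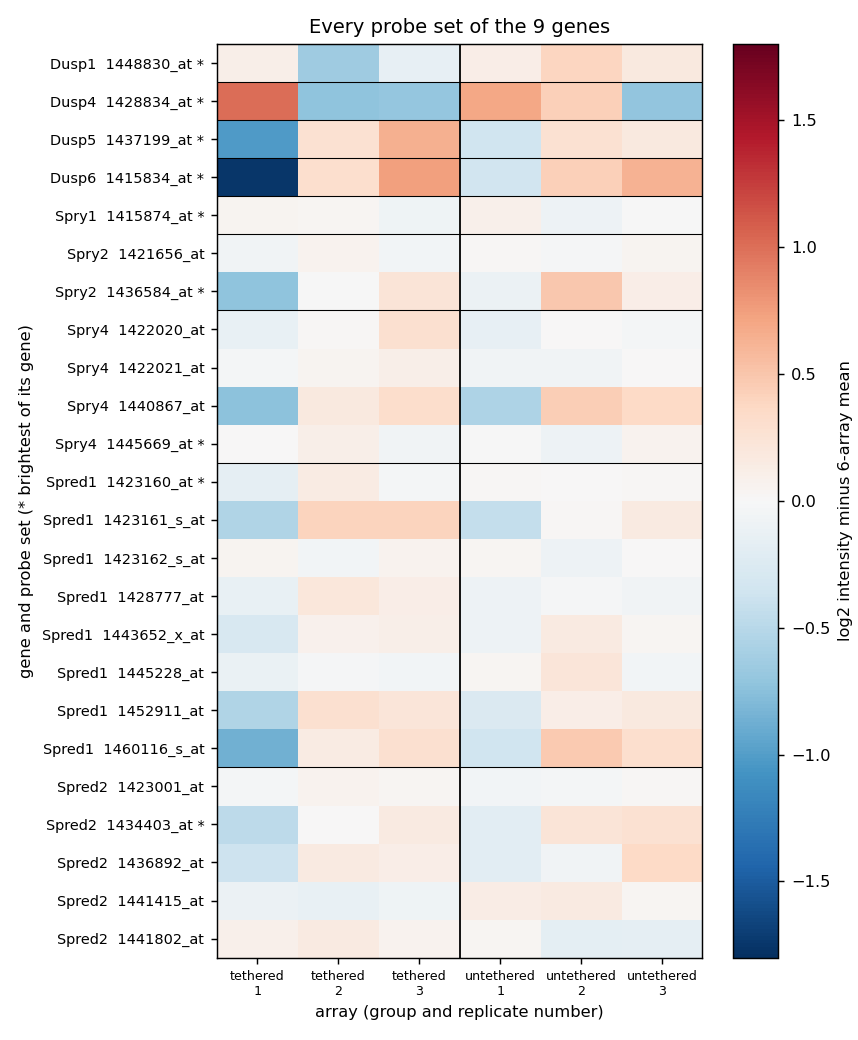
Log2 intensity minus the 6-array mean for all 24 probe sets (rows, grouped by gene, the brightest of each gene starred) on the 6 arrays (columns, tethered left of untethered). Blue cells in both columns numbered 1 mark the low values of Dusp5, Dusp6 and the brighter Spry2 probe set, and Dusp4 is red there. The rows of Spred1 and Spred2 differ within a gene.

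The genes whose profiles over the 6 arrays were most like those of the 5 widely varying members were found by the root mean square difference of the deviations from each gene's mean. For Dusp6 these were S1pr3, a sphingosine phosphate receptor (0.122 log2 units), Sgk1, a serum-induced kinase (0.154), and Fosl1, an AP-1 subunit (0.157). Fosl1 had 10.2, 12.07 and 12.42 in tethered and 11.1, 12.17 and 12.23 in untethered cells, low in both arrays numbered 1 as Dusp6 was. For Dusp5 they were Cd248, a stromal surface protein (0.082), Gprc5a (0.088) and Rgs2, a regulator of G protein signalling (0.1).

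Dusp4 was most like Cyb5r1 (0.103), Ero1a, an oxidase of the endoplasmic reticulum (0.110), and Ttc17 (0.113). Ero1a had 12.47, 10.77 and 10.87 in tethered and 12.42, 11.85 and 10.7 in untethered cells, the same 3 arrays high as for Dusp4. Spry2 was most like Lpp (0.070), a focal adhesion protein, Nav1 (0.071) and Inf2 (0.095), an actin-assembling formin. Dusp1 was most like Sap30 (0.037), a subunit of the Sin3 co-repressor, Scamp1 (0.057) and Dctn6 (0.093). Sap30 had 10.86, 10.19 and 10.69 in tethered and 10.96, 11.14 and 10.95 in untethered cells, with tethered replicate 2 lowest and untethered replicate 2 highest as for Dusp1. The likeness is over 6 arrays, and the component that set the arrays numbered 1 apart held 62.1% of their variance.

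**Figure D4:**
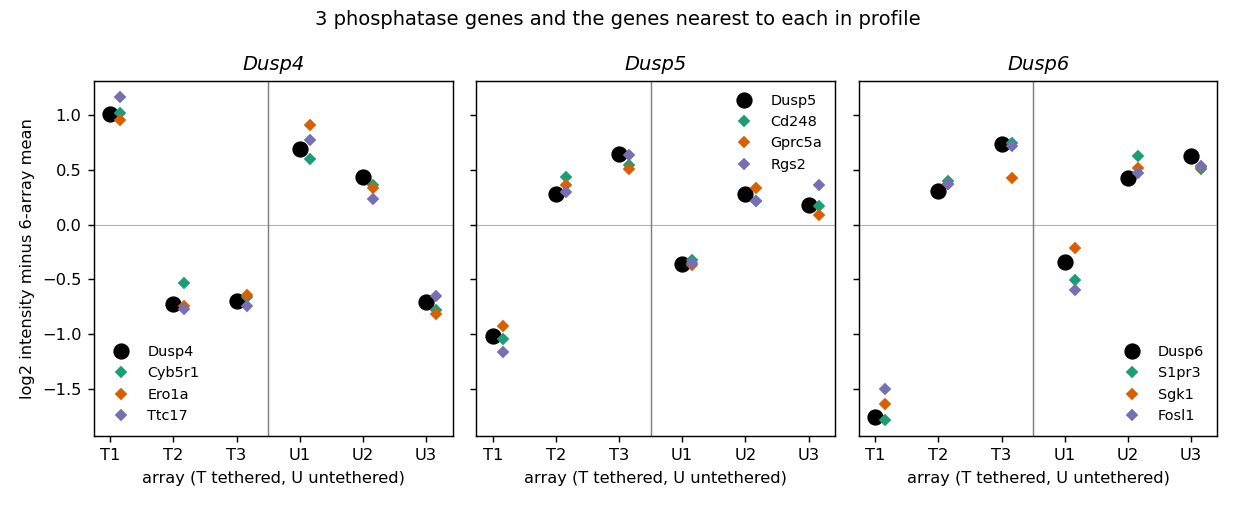
Log2 intensity minus the 6-array mean for Dusp4, Dusp5 and Dusp6 (black circles) and the 3 genes nearest to each in profile (coloured diamonds), on tethered (T) and untethered (U) arrays with their replicate numbers. Dusp4 and its neighbours are high on T1, U1 and U2, and Dusp5, Dusp6 and theirs are low on T1 and U1.

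The rest of the pathway was read from lists of genes, each by its brightest probe set. Of 29 tested transcription factors and targets regulated by ERK, 20 had values below 0, where 58.8% of all genes did, with a median of -0.194. Limma called 0 of them in either direction, and 7 had an unadjusted p under 0.05, as 2.44% of all genes did. The groups did not overlap for 9 of them, all lower in tethered cells, where 4.1% of all genes were lower in that way. Among the 9, Egr1, Jun and Junb had untethered replicate 3 just above the highest tethered value. It was 10.93 against 10.86, 12.52 against 12.48 and 10.44 against 10.29. Untethered replicates 1 and 2 were higher, at 13.18 and 12.37 for Egr1, 13.11 and 12.69 for Jun and 12.28 and 11.03 for Junb. The gap was wider for Ier3, at 12.98 against 12.67. Fos, counted in the 7 and the 9, had 8.18, 8.63 and 8.7 in tethered cells, against 11.15, 10.0 and 8.9 in untethered cells (log2 fold change -1.52, SE 0.546). The tethered values and that of untethered replicate 3 lay under the filter median of 8.93. Fos was thus tested through untethered replicates 1 and 2, and its low values may be background. Without untethered replicate 1 it did not pass the filter. Dusp1, an immediate early gene like Fos, did not share the high value of untethered replicate 1. Ier3 stood at -0.57 (SE 0.098), Fosl2 at -0.37 (SE 0.122) and Klf6 at -0.36 (SE 0.124). With 1 array left out Fos ran from -2.07 to -0.95, and it was -0.79 without both arrays numbered 1.

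In the same list 10 of the 29 genes had both arrays numbered 1 lowest and 4 had them highest, against 25.0% and 12.0% of all genes. Ereg, a ligand of the epidermal growth factor receptor, Ccnd1, the cyclin of early cell cycle entry, and Phlda1 were named after their values were seen. Their arrays numbered 1 minus the others gave -2.73, -1.60 and -1.57, beside -1.58 for Dusp6. Ets2, also named after its values were seen, went the other way at 1.47. Ereg had 7.64, 11.03 and 11.57 in tethered and 9.16, 10.8 and 11.13 in untethered cells.

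Of 11 tested genes among the other phosphatases of the family and Spred3, 6 lay below 0, where 58.8% of all genes did. The median was -0.035, and limma called 0, with 1 at an unadjusted p under 0.05, where 2.44% of all genes lay. Dusp10, which acts on the stress kinases p38 and JNK, had 9.93, 9.93 and 10.09 in tethered cells, against 10.24, 10.36 and 10.33 in untethered cells. Its groups did not overlap, at a log2 fold change of -0.33 (SE 0.075, limma, adjusted p = 0.9994), and with 1 array left out it ran from -0.38 to -0.30. Dusp2 separated the groups the other way, at 0.13 (SE 0.071). These were 1 of 11 genes in each direction, where 4.1% of all genes separated with tethered cells lower and 4.3% with tethered cells higher. Dusp16 stood at -0.36 (SE 0.217) and Dusp3 at -0.30 (SE 0.129).

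Upstream genes gave 0 limma calls in either direction too, and 1 receptor or adaptor gene and 0 kinase genes had an unadjusted p under 0.05. Of all genes 2.44% had one. Of 17 tested receptors and adaptors 13 lay below 0, where 58.8% of all genes did, with a median of -0.082. Pdgfrb, a receptor for platelet-derived growth factor, had 11.09, 10.21 and 10.29 in tethered cells, against 11.16, 11.41 and 11.21 in untethered cells. The groups did not overlap, at -0.73 (SE 0.243, limma, adjusted p = 0.9994), and the value was -1.06 without both arrays numbered 1. Pdgfrb was the 1 of these 17 genes to separate with tethered cells lower, as 4.1% of all genes did. Irs1, an insulin receptor adaptor, stood at -0.78 (SE 0.529), at -0.16 without tethered replicate 1 and at -0.36 without both arrays numbered 1. Fgfr1 stood at -0.13 (SE 0.107) and Igf1r at -0.08 (SE 0.072).

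Of 15 tested genes for Ras, Raf, MEK and ERK kinases and their partners, 10 lay above 0, with a median of 0.035. The other 5 lay below 0, as did 58.8% of all genes. The groups did not overlap for 2 of them, Map2k2 and Rps6ka3, both higher in tethered cells, where 4.3% of all genes were higher in that way. The MEK genes Map2k1 and Map2k2 stood at 0.02 (SE 0.096) and 0.07 (SE 0.057), Rps6ka3, a kinase activated by ERK, at 0.12 (SE 0.065), Rras at -0.30 (SE 0.192) and Lamtor3, a MEK scaffold, at -0.22 (SE 0.123). Of 15 tested regulators of receptor and Ras signalling outside the Dusp, Spry and Spred families, 9 lay below 0 with a median of -0.056. Socs3, Nf1, Pebp1 and Dab2ip lay between -0.16 and -0.08. Of 13 tested genes in the stress kinase list, which also holds Gadd45a and Atf3, 6 lay below 0 with a median of 0.012. Mapk14, Mapk11, Mapk9 and Map2k6 lay between 0.08 and 0.13. Limma called 0 genes of both lists, and 0 had an unadjusted p under 0.05.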

How the data were processed

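Total RNA of 6 samples, 3 tethered and 3 untethered, was biotin-labelled by Affymetrix protocols and put on expression arrays, per the labels. The authors deposited 1 intensity per probe set and array on a linear scale. Their method of summary and scaling is not stated in the labels or files. Array medians differed by 1.76%, so no further scaling was applied. Gene names came from the platform annotation, updated by gene identifier to RefSeq (GRCm38.p6), which held 99.4% of the identifiers. The 64 control probe sets were left out. Intensities were floored at 16 and log2 was taken. Probe sets with a mean log2 above the median (8.93) were tested with limma 3.58.1 in R 4.3.3, two-sided, with no covariate, and adjusted by Benjamini-Hochberg over all 22518. The test script was checked on simulated data.

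The 9 genes and the gene lists were chosen with earlier results of these data known, so no list was tested. Named were all members, the 4 genes of smallest p per pathway list, Map2k1, Map2k2, the RNA quality controls and the 3 nearest profiles of members with a range of 1 or more. Ereg, Ccnd1, Phlda1, Ets2, Egr1, Jun, Junb, Gadd45a and Atf3 were added after their values were seen. Fitted alternatives were quantile normalization, median centring, a floor of 64, no filter, no moderation, the replicate number as a block and each array left out. Leaving out both arrays numbered 1 was fitted too, after seeing the data. Fold changes were also averaged over each gene's probe sets, without a new fit. The number of arrays limits the precision.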

Additional observations from a re-analysis of the deposited data

How the results depend on the processing

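Limma called 0 probe sets under each of the 13 alternatives, with 237 to 1782 at an unadjusted p under 0.05, against 536 in the main setting. The smallest adjusted p of a member over all settings was 0.698. Same-numbered arrays deviated together in numbers 1 and 3 (correlation 0.71 each) and not in number 2 (0.07). These correlations are of deviations from means of 3 arrays and cannot settle whether the numbers mark pairs. The labels do not say, and the main setting, fixed beforehand, took no pairs. With the replicate number as a block, 0 probe sets were called (1232 at an unadjusted p under 0.05) and the smallest adjusted p of a member was 0.740. Among the members' brightest probe sets, only that of Spred2 had an unadjusted limma p under 0.05 there. It was 0.030, against 0.350 in the main setting.

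Members whose groups did not overlap numbered 1 in the main setting, 0 after quantile normalization, 3 without both arrays numbered 1 (2 arrays against 2, where 43.2% of all genes did not overlap), 3 counted over all 24 probe sets (8.16% of all tested probe sets did not overlap) and 1 to 2 with 1 array left out (12.6% to 26.0% of all genes). The members' median log2 fold change of -0.207 was -0.06 with the mean of each gene's probe sets, -0.009 without both arrays numbered 1 and between -0.336 and -0.02 with 1 array left out. Signs turned for 6 members, none of them called. With 1 array left out Dusp4 ran from -0.86 to 0.02, Dusp5 from -0.40 to 0.43, Dusp6 from -0.96 to 0.28, Spry1 from -0.04 to 0.05, Spry4 from -0.02 to 0.07 and Spred1 from -0.12 to 0.04. Without both arrays numbered 1 Dusp5 stood at 0.23 and Spred1 at 0.04, and after quantile normalization Spred1 stood at 0.02. Of 24 pathway genes, Pebp1 alone turned, from -0.18 to 0.0012 with 1 array left out. Causes were not tested.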
